A study of Mus musculus with 8 samples.

Results

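The 6 genes described here are Fos, Fosb, Fosl2, Jun, Junb and Jund, 6 of the 18846 gene symbols measured by RNA sequencing in 8 mouse adrenal glands. They were taken by symbol as the members of the Fos and Jun families with a place in the AP-1 transcription factor, and for each the estimated counts of its listed transcripts were added up in every library. All 8 mice were of strain 129SVEV and were labelled wild type or Siah1a -/- (here called the knockout). Siah1a encodes an E3 ubiquitin ligase, an enzyme that marks other proteins for degradation. Each genotype was sampled untreated and 1 h after an injection into the body cavity of 100 µg/kg ACTH, the pituitary hormone that drives steroid synthesis in the adrenal cortex. Each of the 4 groups held 2 libraries, 1 from a mouse labelled male and 1 from a mouse labelled female, 1 gland each. The labels give no age, and the deletion is not given as limited to a cell type. The labels name no vehicle injection, so ACTH and the handling and injection cannot be told apart.

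AP-1 is a dimer of basic leucine zipper proteins that binds the palindrome TGANTCA. Fos proteins bind DNA only with a partner, usually a Jun protein, whereas Jun proteins can also pair with each other. Fos, Fosb, Jun and Junb are classic immediate early genes, transcribed within minutes of a hormone, growth factor or stress signal from factors already present in the cell, and their messages decay fast. Jund and Fosl2 (the Fra-2 protein) are usually made more steadily. In the adrenal gland ACTH acts through cyclic AMP and protein kinase A, and Fos and Jun messages are known early products of that signal.

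The check of the targeted gene came first. In wild type, Siah1a measured 26.3 and 26.1 CPM without ACTH and 33.1 and 32.4 CPM with it, against 25.2 and 21.2 CPM without and 19.0 and 17.4 CPM with it in the knockout (labelled male, then labelled female). CPM give a gene's count as a share of its library's total, scaled with TMM factors. Only the summed levels of marker genes are given without these factors. This order, labelled male first, is kept for every pair of values that follows. Knockout libraries thus kept Siah1a reads, and which part of the gene was deleted is not given in the labels. The files list 8020111 to 29568950 counts per library. Markers of the adrenal cortex were high in all 8 libraries (summed level of 7 genes 28580 to 50330 CPM). 5 kidney markers summed to 1795 CPM in 1 library (wild type, untreated, labelled male) and to 8.11 CPM or less elsewhere, where 1 to 5 of them were at 0 in each library. 5 liver markers summed to 53470 CPM in 1 library (wild type, ACTH, labelled female) and to 123 to 689 CPM elsewhere. The library with kidney transcripts also went against its sex label: it held the female-specific Xist RNA at 388 CPM and the Y-linked Eif2s3y, Kdm5d and Uty at 0. Results are therefore also given without these 2 wild-type libraries. Wild type then holds 1 untreated library labelled female and 1 ACTH-treated library labelled male. Within wild type, ACTH and the sex label cannot be told apart in those fits.

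Fos and Junb were higher in the knockout than in wild type under both treatments, about 3-fold to 4-fold on average, and Fosb was close to absent from untreated wild-type glands and present in all 4 ACTH-treated ones. Fosl2 was the most abundant member per length and differed little between groups. Jun and Jund were in between. With 2 libraries per group, none of the 6 passed an adjusted p of 0.05 in the edgeR quasi-likelihood test in any of 7 comparisons, and Fos came closest.

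**Figure D1:**
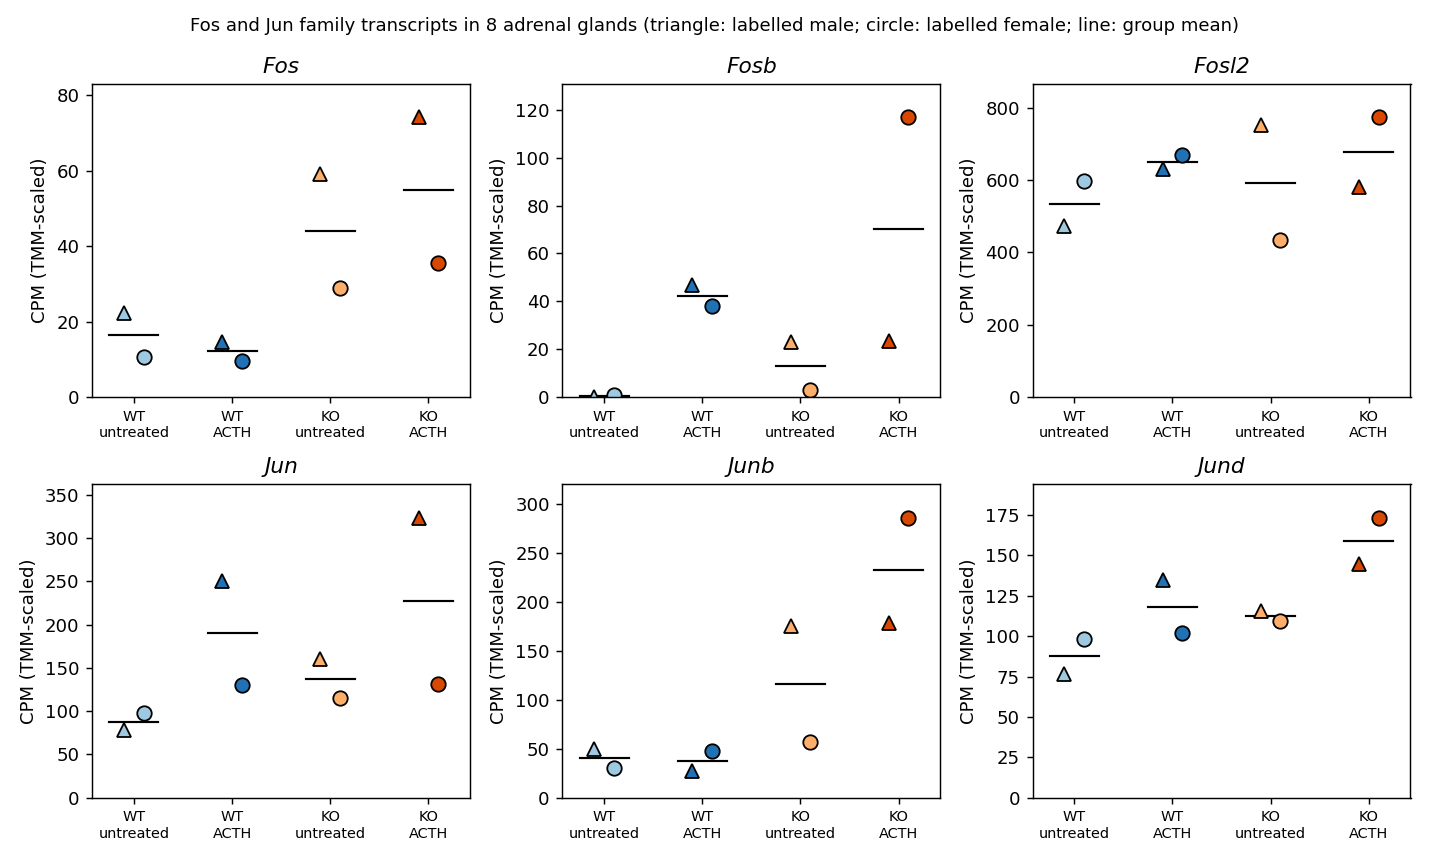
CPM (TMM-scaled, linear axis from 0) of each member in the 8 libraries, grouped by genotype (WT, wild type; KO, Siah1a -/-) and treatment, with triangles for libraries labelled male, circles for those labelled female and a line at the group mean. Fos and Junb sit higher in every KO library than in every WT library, and Fosb is at 0 and 0.93 CPM in untreated WT.

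The promoters of the 3 members with the largest differences, and of Fosl2, are shown first, because motifs known from these genes can be read in them. In the RefSeq promoter windows (GRCm38.p6, 300 bases around each annotated start), the core of the cyclic AMP response element, TGACG, was found in Fos, Fosb and Junb and in none of Fosl2, Jun and Jund. Of all 32851 windows of that length, 20.8% held it on either strand, so 3 of 6 is a description of these windows and no evidence of binding. The stretches below, 149 bases each from -140 to 8 relative to the start, are written 5′ to 3′ on the gene's own strand, with TGACG and the TATA box TATAAA in capitals; Fosl2 is shown as a member without either.
Fos promoter, chr12:85473750-85473898 (plus strand): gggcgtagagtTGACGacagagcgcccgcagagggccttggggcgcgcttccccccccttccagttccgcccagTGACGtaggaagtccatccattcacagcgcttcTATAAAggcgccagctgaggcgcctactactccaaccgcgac
Fosb promoter, chr7:19310037-19310185 (minus strand): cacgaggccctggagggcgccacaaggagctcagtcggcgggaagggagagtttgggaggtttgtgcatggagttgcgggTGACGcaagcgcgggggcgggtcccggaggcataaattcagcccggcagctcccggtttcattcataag
Junb promoter, chr8:84978740-84978888 (minus strand): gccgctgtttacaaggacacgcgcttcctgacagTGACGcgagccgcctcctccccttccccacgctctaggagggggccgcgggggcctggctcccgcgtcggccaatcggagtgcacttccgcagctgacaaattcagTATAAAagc
Fosl2 promoter, chr5:32136332-32136480 (plus strand): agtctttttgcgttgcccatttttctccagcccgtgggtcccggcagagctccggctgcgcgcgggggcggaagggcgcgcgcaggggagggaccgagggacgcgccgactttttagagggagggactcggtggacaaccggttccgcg

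Fos held TGACG at 129 and 66 bases before the start and a TATA box at 33 bases before it. Fosb held 1 TGACG at 60 bases before the start, and Junb 1 at 106 bases before it, with TATAAA beginning at the annotated start base itself. A TATA box was found in 2 of the 6 windows and in 13.6% of all windows. The GC box GGGCGG was found in 4 of the 6 (Fos, Fosb, Fosl2 and Jun) and in 35.7% of all windows. The full element TGACGTCA (1.79% of windows), the AP-1 site TGANTCA (7.81%) and the CArG box, the site of serum response factor (1.63%), had no match in any of the 6 windows, which says only that these letters do not stand in them. Both strands were searched, and each full element also counts as a core match.

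**Figure D2:**
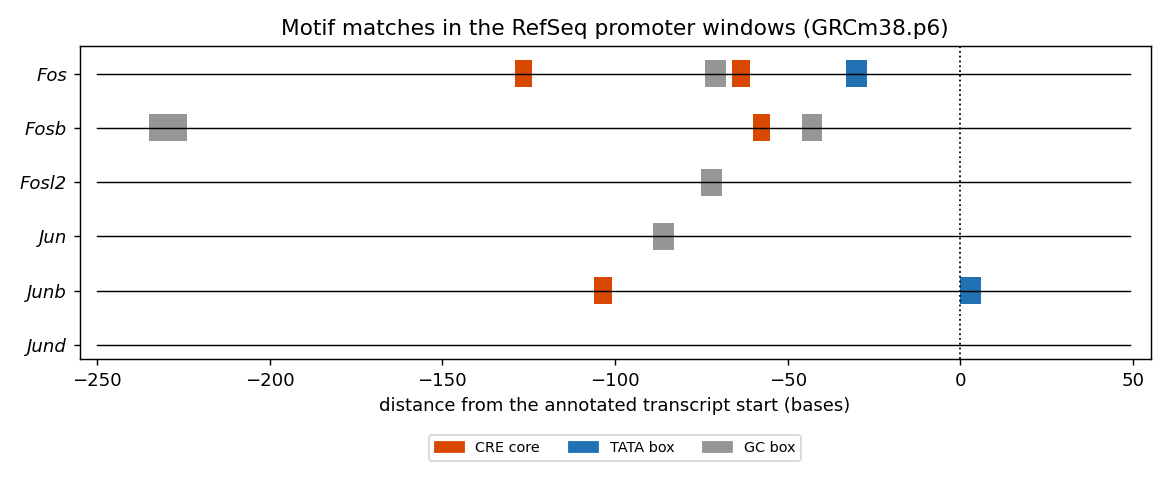
Motif matches on either strand in the 6 promoter windows, drawn to scale against the distance in bases from the annotated transcript start (dotted line). The TGACG core appears 2 times in Fos and once each in Fosb and Junb, and the Jund window holds none of the 3 motif kinds drawn.

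Fos, the founding member and a strict partner of Jun proteins, lies at chr12:85473890-85477274 on the plus strand (GRCm38). Its level was 22.5 and 10.8 CPM in untreated wild-type libraries and 14.7 and 9.63 CPM after ACTH. In the knockout it was 59.0 and 28.8 CPM untreated and 74.1 and 35.5 CPM after ACTH. Every knockout library was thus above every wild-type library, and within each group the library labelled male was the higher one. The mean was 49.4 ± 21.0 CPM in the knockout and 14.4 ± 5.80 CPM in wild type (SD, n = 4 each). Averaged over treatments the fitted log2 difference was 1.75 ± 0.23 (SE), 3.37-fold, with an edgeR adjusted p of 0.0748 (unadjusted 7.1e-05, rank 14 of 15361 genes tested). By pairs of equal treatment and sex label the ratio was 2.63 and 2.68 untreated, and 5.04 and 3.68 after ACTH. Fos was higher in 4 of 4 pairs. For ACTH no such difference was seen: Fos was 0.65 and 0.89 times its untreated level in wild type and 1.26 and 1.23 times it in the knockout, an average log2 difference of -0.03 ± 0.22 (edgeR adjusted p = 0.993).

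The Fos call in the genotype average turned on the tool and the setting. Among the edgeR settings that did not pass were those without TMM factors (adjusted p = 0.0552) and without the sex label. Without the sex label the log2 difference was 1.79 ± 0.40 (unadjusted p = 0.00156, adjusted p = 0.117). DESeq2 (adjusted p = 4.09e-07), limma-voom (0.0241) and edgeR with robust estimation (0.039) placed Fos past 0.05, as did edgeR with no filter on low counts (0.0366). With the untreated wild-type library labelled male or female left out, the log2 difference was 1.87 and 1.80. Without both wild-type libraries with foreign-tissue transcripts, the log2 difference was 1.86 ± 0.30 and the edgeR adjusted p 0.109. Chromaffin markers, genes of the adrenal medulla, were also higher in 3 of the 4 knockout libraries. The 5 genes summed to 7306 and 6202 CPM in untreated and 6234 CPM in the labelled-male ACTH-treated knockout libraries, against 2118 to 4058 CPM in wild type, with none of the 5 at 0 in any library. In the remaining knockout library, ACTH-treated and labelled female, they summed to 1788 CPM, and Fos there was at 35.5 CPM; their part in the Fos difference was not tested. A larger share of a cell type and more RNA per cell cannot be told apart in whole glands.

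Fosb, the closest relative of Fos, lies at chr7:19302696-19310118 on the minus strand. Untreated wild-type libraries had 0 and 17 counts of it (0 and 0.93 CPM), where a count of 0 allows up to 0.353 CPM by 3 counts. One hour after ACTH, wild-type libraries held 46.8 and 38.0 CPM, from 1147 and 994 counts. The knockout libraries held 23.0 and 3.09 CPM untreated and 23.3 and 116.8 CPM after ACTH. So both untreated knockout libraries lay above untreated wild type, the one labelled male at the level of its ACTH-treated counterpart, and the 4 ACTH-treated libraries lay above all 4 untreated ones, by a margin of 23.3 against 23.0 CPM at the closest.

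The ACTH difference of Fosb averaged 4.27 ± 1.24 on the log2 scale, 19.3-fold (unadjusted p = 0.00902, edgeR adjusted p = 0.719). In wild type alone it was 6.36 ± 1.55 (unadjusted p = 0.0049, edgeR adjusted p = 1) and in the knockout 2.21 ± 1.39 (adjusted p = 0.999). The value in the knockout turned on each of its libraries: it was 0.50 and 4.88 without the untreated library labelled female or male, and 0.76 and 3.68 without the ACTH-treated one labelled female or male. Fitted folds against the near-empty untreated group are unstable: the value in wild type was 12.54 when the labelled-female untreated library was left out, and 5.37 when the labelled-male one was. The interaction, -4.15 ± 2.07 (unadjusted p = 0.0871, edgeR adjusted p = 1), did not pass. The knockout difference was 4.75 ± 1.56 untreated (unadjusted p = 0.0192, edgeR adjusted p = 0.892) and 0.61 ± 1.24 after ACTH. The untreated value was 2.19 (unadjusted p = 0.107, edgeR adjusted p = 1) without the labelled-male untreated knockout library and 10.77 without the labelled-female untreated wild-type one. After ACTH its sign rested on 1 library: without the knockout library labelled female it was -1.11. The files list 1 Fosb transcript, so the full-length message and the truncated ΔFosB splice form, which lacks part of the activation region, are not told apart.

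Fosl2, which encodes Fra-2, lies at chr5:32136472-32157840 on the plus strand. It was at 473 and 596 CPM in untreated and 630 and 669 CPM in ACTH-treated wild-type libraries. In the knockout it was at 751 and 433 CPM untreated and 581 and 773 CPM after ACTH. The knockout libraries spread over the whole wild-type range and beyond it on both sides. Its log2 difference was 0.10 ± 0.21 for genotype (edgeR adjusted p = 0.874) and 0.24 ± 0.21 for ACTH (adjusted p = 0.913). Its range was the narrowest of the 6 members, 1.77-fold between the highest and lowest deposited RPKM. In the knockout the pairs went opposite ways, with ACTH 0.77 times untreated in the libraries labelled male and 1.78 times in those labelled female.

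Jun, the founding member of its family and able to bind as a homodimer, lies at chr4:95049036-95052222 on the minus strand and overlaps Junos, an antisense gene. Wild-type libraries held 77.7 and 98.4 CPM untreated and 251 and 131 CPM after ACTH. Knockout libraries held 160 and 115 CPM untreated and 324 and 131 CPM after ACTH. Jun was higher after ACTH in 4 of 4 pairs, 3.23 and 1.33 times in wild type and 2.02 and 1.14 times in the knockout. The larger ratio was in the libraries labelled male both times. The wild-type pair labelled male was not matched for Y-linked transcripts. Eif2s3y was at 0 CPM in its untreated library and at 104 CPM in its ACTH-treated one. The part of this mismatch in the ACTH ratio of 3.23 was not tested. The average log2 difference was 0.81 ± 0.26 (unadjusted p = 0.0147, edgeR adjusted p = 0.727). In wild type it was 0.98 ± 0.39 (unadjusted p = 0.0392), and 0.42 without the untreated library labelled male, the one with kidney transcripts. The genotype difference was 0.39 ± 0.26 (edgeR adjusted p = 0.565). After ACTH the libraries labelled female of both genotypes were at nearly the same level, 131.2 and 130.6 CPM.

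Junb, a Jun protein that can restrain Jun and activates on its own in other settings, lies at chr8:84976909-84978748 on the minus strand. Wild-type libraries held 50.1 and 30.5 CPM untreated and 27.8 and 48.3 CPM after ACTH. Knockout libraries held 176 and 56.6 CPM untreated and 179 and 287 CPM after ACTH. As with Fos, all 4 knockout libraries were above all 4 wild-type libraries, the lowest of them by 56.6 against 50.1 CPM. The means were 174 ± 93.9 CPM and 39.2 ± 11.6 CPM (SD, n = 4 each), the fitted log2 difference 2.06 ± 0.45, 4.17-fold, and the edgeR adjusted p 0.145 (unadjusted 0.00194, rank 204). DESeq2 gave an adjusted p of 4.1e-05. The pair ratios were 3.51 and 1.85 untreated and 6.42 and 5.93 after ACTH. Fitted within a treatment, the log2 difference was 1.50 ± 0.59 untreated (edgeR adjusted p = 0.892) and 2.61 ± 0.61 after ACTH (adjusted p = 0.389). The untreated value was 0.32 when the labelled-male untreated knockout library was left out. That library also had the highest summed smooth muscle markers (440 CPM for 4 genes, 92.5 to 166 CPM elsewhere, none at 0); their part in the Junb value was not tested.

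ACTH and Junb showed no common direction in wild type, with ratios of 0.56 and 1.58, a log2 difference of -0.03 ± 0.58. In the knockout the ratios were 1.02 and 5.06, a difference of 1.08 ± 0.60 (edgeR adjusted p = 0.999). This value was 0.25 and 2.15 (unadjusted p = 0.66 and 0.00963, edgeR adjusted p = 1 both times) without the untreated knockout library labelled female or male, and 0.48 and 1.68 without the ACTH-treated one labelled female or male. The untreated knockout library labelled male already held as much Junb as its ACTH-treated counterpart, the same pairing as for Fosb. The interaction of 1.11 ± 0.81 did not pass (unadjusted p = 0.218, edgeR adjusted p = 1).

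Jund, the most evenly made Jun gene, lies at chr8:70697739-70700616 on the plus strand and overlaps the antisense gene Gm11175. Wild-type libraries held 76.8 and 98.5 CPM untreated and 135 and 102 CPM after ACTH. Knockout libraries held 116 and 110 CPM untreated and 145 and 173 CPM after ACTH. Jund was the only member whose 2 libraries lay wholly above those of the comparison group in all 4 single-treatment and single-genotype comparisons, as for 0.866% of the genes tested. The differences were small: 1.28 and 1.34 times for genotype and 1.35 and 1.41 times for ACTH, by group means. The averages were 0.39 ± 0.16 for genotype (unadjusted p = 0.0401, edgeR adjusted p = 0.344) and 0.47 ± 0.16 for ACTH (unadjusted p = 0.0197, adjusted p = 0.727). The files list 2 Jund transcripts with counts split evenly between them, which were added up. No source used here says whether reads were assigned by strand, so Jun and Junos, and Jund and Gm11175, cannot be told apart by these counts.

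**Figure D3:**
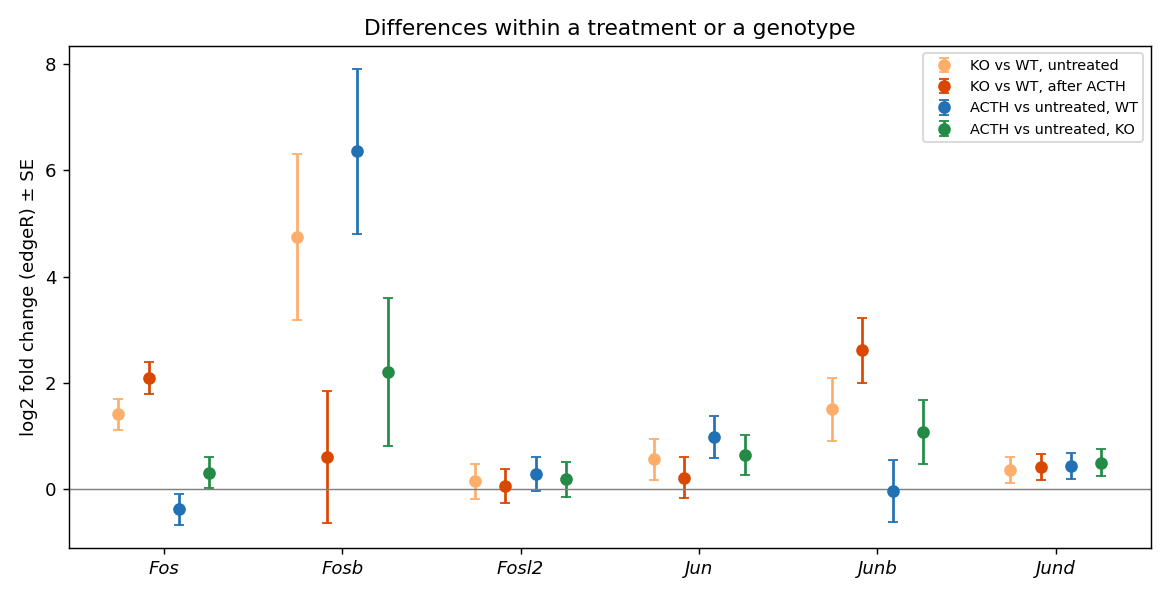
Fitted log2 fold changes (edgeR, points) with standard errors (bars) for the 6 members in the 4 single-treatment and single-genotype comparisons (WT, wild type; KO, Siah1a -/-). The genotype differences stand out for Fos (1.41 and 2.10) and Junb (1.50 and 2.61), the ACTH difference for Fosb (6.36 in WT, 2.21 in KO), and Fosl2 lies near 0 throughout.

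The counts over the 6 members are given beside the same counts over all genes tested. In the genotype average 0 of 6 passed the edgeR adjusted p of 0.05, where 0.026% of the 15361 genes did, and 3 (Fos, Junb and Jund) were higher at an unadjusted p under 0.05, where 5.33% of genes were higher. DESeq2 called 2 members (Fos and Junb) and 6.07% of genes, limma-voom called Fos and 0.703% of genes, and edgeR called Fos with robust estimation (0.143% of genes) and with no filter (0.222%). All 6 log2 differences were above 0, with a median of 1.07 against -0.044 over all genes. Fos and Junb did not overlap between all 4 knockout and all 4 wild-type libraries, which 4.2% of genes did in that direction. Fos, Junb and Jund did not overlap within either treatment, as for 6.82% of genes. Without the 2 wild-type libraries with kidney or liver transcripts, 2 members (Fos and Junb) had an unadjusted p under 0.05, against 7.51% of genes in either direction, and 0 an adjusted one (0.0188% of genes did).

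Within untreated glands 5 of 6 members, all but Fosl2, were higher in the knockout without overlap, against 18.1% of genes. 3 of them (Fos, Fosb and Junb) had an unadjusted edgeR p under 0.05, against 2.2% of genes, 0 an adjusted p under 0.05 (0% of genes), and DESeq2 called Fos (0.723% of genes). After ACTH 3 members (Fos, Junb and Jund) did not overlap, against 19.3% of genes. Fos and Junb had an unadjusted p under 0.05, against 2.81% of genes, with an edgeR adjusted p of 0.154 for Fos, and 0 members passed (0.00651% of genes did). There DESeq2 called both (3.16% of genes). Without the same 2 wild-type libraries the members with an unadjusted p under 0.05 numbered 3 in untreated glands, against 1.34% of genes in either direction, and 2 after ACTH, against 5.58%.

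For ACTH averaged over genotypes, 0 of 6 passed (0.0195% of genes did) and 3 (Fosb, Jun and Jund) were higher at an unadjusted edgeR p under 0.05, against 3.49% of genes. DESeq2 called 0 members as well, and 123 of the 15361 genes. The median log2 difference was 0.49, against 0.023 over all genes. Fosb was the only member in which all 4 treated libraries were above all 4 untreated ones, as for 2.09% of genes, and Fosb and Jund did not overlap within either genotype, as for 4.36%. In wild type alone 4 members (Fosb, Fosl2, Jun and Jund) were higher without overlap (18.4% of genes), 2 (Fosb and Jun) at an unadjusted p (1.97%) and 0 adjusted (0%). In the knockout alone 3 members (Fosb, Junb and Jund) were higher without overlap (15.5% of genes), 0 at an unadjusted p (1.96%) and 0 adjusted (0%). There DESeq2 also called 0 members, and 99 of the 15361 genes. No member had an interaction at an unadjusted edgeR p under 0.05 (1.84% of genes) or an adjusted one (0%). By DESeq2 1 member, Fosb, had an unadjusted p under 0.05, as did 636 of the 15361 genes. The comparisons share libraries, so their counts are not independent of each other. Without the 2 wild-type libraries, members with an unadjusted p under 0.05 numbered 3 for the ACTH average (5.58% of genes in either direction), 1 in wild type (Fosb; 2.1% of genes) and 2 in the knockout (Fosb and Junb; 3.82% of genes).

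Levels were compared between genes on the authors' deposited RPKM, which are scaled for transcript length. Over the 8 libraries the mean was 88.0 ± 16.1 RPKM for Fosl2, 48.8 ± 43.7 for Junb, 42.4 ± 21.7 for Jun, 35.0 ± 8.93 for Jund, 12.8 ± 9.21 for Fos and 6.97 ± 8.73 for Fosb (SD, n = 8, all groups pooled). Junb, Jun and Jund did not differ beyond this spread, which includes the differences between groups, nor did Fos and Fosb. Library by library, Fos was above Fosb in every untreated library and below it in both ACTH-treated wild-type ones. In the ACTH-treated knockout, Fos was above Fosb in the library labelled male (29.2 against 5.10 RPKM). It was below Fosb in the one labelled female (14.48 against 26.45 RPKM). CPM per kilobase of GENCODE transcript instead put Jund at 71.4, second after Fosl2. The 6 genes together summed to 152 and 165 RPKM in untreated and 229 and 177 RPKM in ACTH-treated wild type, and to 287 and 167 RPKM in untreated and 321 and 373 RPKM in ACTH-treated knockout libraries. The untreated knockout library labelled female was thus at the wild-type level while the other 3 were above all wild-type libraries. The Fos family's share of that sum was 47.4% to 56.7% in wild type and 36.1% to 46.6% in the knockout, but 39.8% to 47.6% and 31.2% to 40.7% with GENCODE lengths, which overlap. Junb reached 35.6% of the RPKM sum in the ACTH-treated knockout library labelled female. The share of Fosl2 ran from 25.4% to 53.9%.

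**Figure D4:**
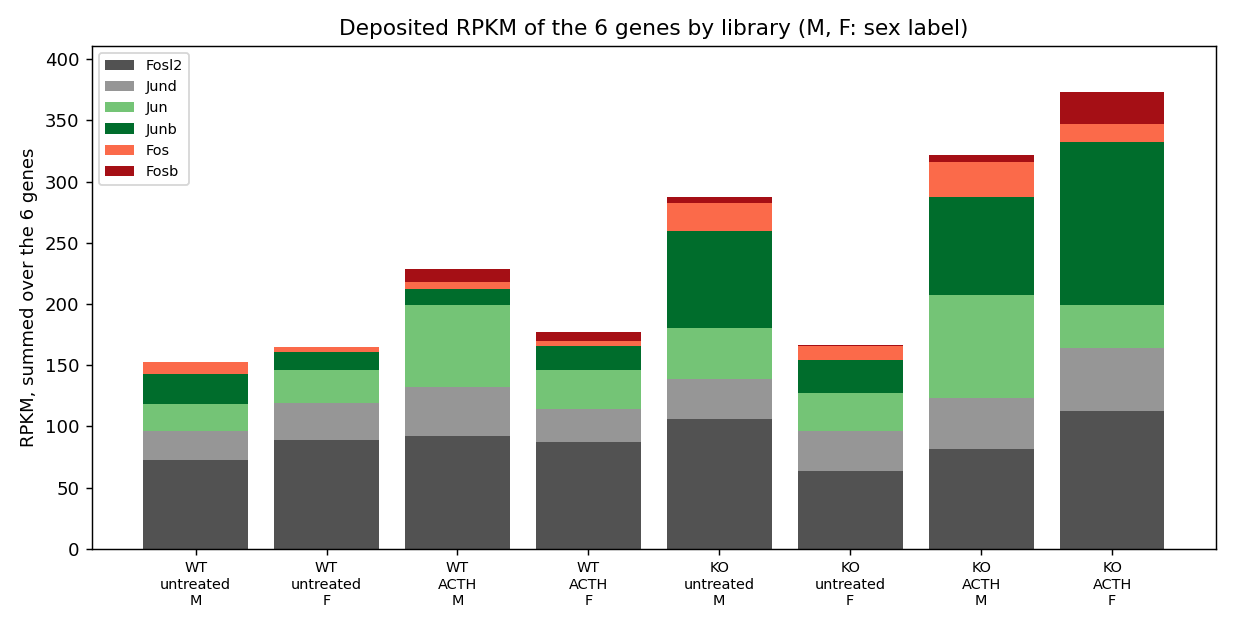
Deposited RPKM of the 6 members stacked per library (linear axis from 0; WT, wild type; KO, Siah1a -/-; M and F, sex label). Fosl2 (dark grey) keeps a similar height, while Junb (dark green) reaches 78.9 to 133.1 RPKM in 3 KO libraries against 12.9 to 24.4 RPKM in WT.

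The members did not share 1 profile. Across the 8 libraries Pearson's r of log2 CPM was 0.82 for Fos with Junb, 0.85 for Fosb with Jund and 0.74 for Fosb with Fosl2, but 0.21 for Fos with Fosb and 0.09 for Fos with Fosl2. The points share libraries and their scaling, and no test is attached. Among 11168 genes with a mean of at least 5 CPM, the profile most like Fos was that of Sh3bp1 (r = 0.984), then Eif2s2 (0.978), a subunit of a translation initiation factor, and Rpl8 (0.974), a ribosomal protein. For Junb it was Sik1 (0.956), a kinase known as a cyclic AMP target, at 54.0 to 94.8 CPM in wild type and 72.4 to 221 CPM in the knockout, followed by Amd2 (0.955) and Ctnna1 (0.951). For Fosb it was Mrpl55 (0.986), then Dnajb4 (0.980), a heat shock co-chaperone, and Fam53c (0.979). For Jund it was Pvrl2 (0.986), Plekhg1 (0.974) and Nab2 (0.966), a repressor partner of EGR proteins. For Jun the nearest were Aatk (0.948), Grk5 (0.942) and Sod3 (0.939), and for Fosl2 Cog6 (0.940), Dnttip1 (0.937) and Phf6 (0.935). The mean of the 6 standardised profiles was nearest to Mesdc1 (0.986), Tnfrsf12a (0.980), Slc38a1 (0.972), Ptp4a1 (0.969) and Atg101 (0.968).

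Other genes of the pathway were counted in lists. At the unadjusted edgeR p under 0.05 used for these counts, 5.33% of all genes tested were higher and 8.11% lower in the knockout, and 3.49% were higher and 2.62% lower after ACTH, and each list's count is to be read against these shares. Of 13 tested partners from the wider leucine zipper family, 2 were higher at an unadjusted edgeR p under 0.05 in the knockout and 5 after ACTH, none lower, none with an adjusted p under 0.05. Atf4, a stress-response partner, was at 214 and 208 CPM in untreated and 268 and 303 CPM in ACTH-treated wild type, and at 286 and 259, then 517 and 424 CPM in the knockout. Its log2 difference was 0.54 ± 0.15 for genotype (edgeR adjusted p = 0.196) and 0.61 ± 0.15 for ACTH (adjusted p = 0.631). Atf3, named after its values were seen, resembled Fosb: 0 and 1.64 CPM in untreated wild type, 16.2 and 14.5 CPM after ACTH, and in the knockout 5.12 and 1.79 CPM, then 32.2 and 31.4 CPM. Its ACTH difference was 3.63 ± 0.85 (unadjusted p = 0.00286, edgeR adjusted p = 0.631). Atf2 and Maf, the other abundant partners, had differences of -0.09 ± 0.13 and -0.41 ± 0.32 for genotype. Fosl1, the one Fos gene outside the 6, was too low to be tested.

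Upstream of Fos, 10 genes for factors that bind its promoter were tested. Of these, 0 were higher and 1 lower at an unadjusted p in the knockout, and 3 were higher and 0 lower after ACTH. Creb1, the cyclic AMP response factor, differed by -0.10 ± 0.23 for genotype and 0.02 ± 0.23 for ACTH. Crem, whose short product ICER is itself a cyclic AMP target, was at 68.0 and 85.6 CPM in untreated and 388 and 291 CPM in ACTH-treated wild type. In the knockout it was at 40.9 to 236.5 CPM untreated and 161.6 to 401.8 CPM after ACTH, which overlap. Its ACTH difference, averaged over genotypes, was 1.68 ± 0.56 (unadjusted p = 0.0175, edgeR adjusted p = 0.727). Stat3 differed by 0.57 ± 0.19 for ACTH (edgeR adjusted p = 0.727). Of 16 MAP kinase and protein kinase A genes, 2 were higher and 1 lower in the knockout and 1 higher after ACTH. Prkar2b and Prkar1a, regulatory subunits of protein kinase A, had genotype differences of 0.55 ± 0.20 and 0.40 ± 0.14 (edgeR adjusted p = 0.29 and 0.285).

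Of 8 genes for the decay of Fos and Jun messages and proteins, 1 was higher at an unadjusted p in each comparison and 0 lower. Zfp36l1, which binds AU-rich elements of short-lived messages, was the one in the knockout, at 226 to 233 CPM in 3 wild-type libraries and 209 CPM in the fourth, against 357 to 504 CPM in the knockout (log2 difference 0.91 ± 0.15, edgeR adjusted p = 0.097). Zfp36, chosen after its values were seen, was the one after ACTH, with a difference of 1.17 ± 0.25 (edgeR adjusted p = 0.627). The ubiquitin ligase gene Cop1, listed as Rfwd2, whose product targets Jun, differed by -0.20 ± 0.13 for genotype, and Elavl1, whose product stabilises AU-rich messages, by 0.34 ± 0.21.

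Of 22 other immediate early genes, 15 were higher at an unadjusted p in the knockout (5.33% of all genes were) and 0 lower, with a median log2 difference of 1.03, close to that of the 6 members; 7 were higher (3.49% of all genes were) and 1 lower after ACTH, with a median of 0.59. Only Rgs2, a brake on G protein signalling, passed in the edgeR test: 439 and 423 CPM in untreated and 413 and 435 CPM in ACTH-treated wild type against 1405 and 1159 CPM, then 1062 and 1059 CPM, a log2 difference of 1.45 ± 0.14 (adjusted p = 0.0381). Egr1, chosen outside the naming rule given below, differed by 1.28 ± 0.16 for genotype (edgeR adjusted p = 0.0691) and -0.11 ± 0.16 for ACTH. Of the orphan nuclear receptor genes, Nr4a1 differed by 1.56 ± 0.28 for genotype (edgeR adjusted p = 0.102) and Nr4a3 by 2.43 ± 0.53 for ACTH (adjusted p = 0.627). These genes were partly described in earlier work on the same libraries and are not independent evidence.

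Of 19 tested genes described as AP-1 targets, 2 were higher and 2 lower at an unadjusted p in the knockout, and 2 higher and 0 lower after ACTH, with medians of 0.18 and 0.37. Those that differed most went opposite ways. Cd44, a cell surface adhesion receptor, was at 168 and 199, then 182 and 126 CPM in wild type and 372 and 223, then 438 and 301 CPM in the knockout (log2 difference 0.95 ± 0.21, edgeR adjusted p = 0.146). Spp1, which encodes osteopontin, was at 762 and 287, then 453 and 573 CPM in wild type and 23.7 and 62.1, then 17.9 and 27.5 CPM in the knockout (-4.13 ± 0.47, edgeR adjusted p = 0.0643). The 762 and 573 CPM were in the wild-type libraries with kidney and liver transcripts, in that order. Their part in the Spp1 difference was not tested. The other wild-type values, 287 and 453 CPM, were also above every knockout value. Vegfa, the most abundant of the list by mean CPM, differed by 0.18 ± 0.19. With 2 libraries a group and 4 residual degrees of freedom for the averages, the precision is limited, and a p that missed the threshold does not show equal levels.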

How the data were processed

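RNA from 8 single adrenal glands was sequenced. Per the submitters' processing notes, the tools were Partek 6.6, Bowtie2 2.2.5.0, FastQC 0.11 and TopHat2 2.0.13, with the build mm10; their settings and the handling of strand and multiply mapped reads are not given in the sources used here. Per the file headers, the authors deposited estimated counts and RPKM per RefSeq transcript for each library. Estimated counts were summed per symbol (28678 transcripts, 18846 symbols) and rounded to whole numbers; deposited RPKM were summed per symbol for comparisons between genes only. Totals differed 3.69-fold between libraries, and counting limits cover counting error only.

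edgeR 4.0.16 (R 4.3.3) was run with filterByExpr (minimum count 10; 15361 genes kept), TMM factors and the quasi-likelihood F test. Averages came from genotype, treatment and sex label (4 residual degrees of freedom); differences within a treatment or genotype and the interaction came from group means and sex label (3). The Benjamini-Hochberg adjustment ran over all genes tested, with a threshold of 0.05; the script was tested on simulated data. Alternatives were DESeq2 1.42.0, limma-voom (limma 3.58.1), robust estimation, other scaling, no filter, no sex covariate, fewer libraries and each library left out.

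Labels give 1 mouse per library and no shared numbers that pair animals; p-values measure the spread between these mice. Named from each pathway list were genes with an adjusted p under 0.05 and otherwise the 3 of highest mean CPM. Atf3, Egr1 and Zfp36 were named outside this rule. Likeness used Pearson's r of log2 CPM (prior count 2), naming up to 3 genes a member and 5 for their mean, and passing over unnamed gene models. One gene that the rule names is not reported here. The 6 genes and all lists were chosen with earlier results of these data known. Promoter sequences are from RefSeq (GRCm38.p6; all 6 symbols matched); protein sequences were not used here.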

Additional observations from a re-analysis of the deposited data

Results flagged for a closer look

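Fos went opposite ways after ACTH in the 2 genotypes, in every pair of libraries of the same sex label. In wild type the ACTH-treated library held 0.654 and 0.893 times the untreated level, and in the knockout 1.26 and 1.23 times. The ACTH-treated and untreated libraries overlapped in both genotypes, and the share of all genes with such a pattern was not counted. The interaction was 0.69 ± 0.41 on the log2 scale (unadjusted p = 0.133, edgeR adjusted p = 1) and did not pass. One of the untreated wild-type libraries, the one labelled male, held kidney transcripts. In it the Y-linked Eif2s3y, Kdm5d and Uty were at 0 and Ddx3y at 3.06 CPM. One of the ACTH-treated wild-type libraries, labelled female, held liver transcripts. Without these 2 libraries the fitted ACTH difference of Fos was -0.60 ± 0.60 in wild type and 0.31 ± 0.35 in the knockout, and the interaction 0.91 ± 0.70. Wild type then held 1 untreated library labelled female and 1 ACTH-treated library labelled male. ACTH and the sex label cannot be told apart within it, and the sex label term came from the knockout libraries alone. Groups of 2 libraries are too small for a check of single outlying samples.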

How the results depend on the processing

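Of 708 values of single members under 18 alternative settings, 664 kept their direction and their side of the threshold, 34 changed sign and 10 passed the threshold where the reported value did not; the causes were not tested. The 10 include values from fits with a library left out, which leave 1 group with a lone library. In the genotype average with every library kept, the number of members called, 0 as reported, was 1 with no filter, 2 by DESeq2, 1 by limma-voom and 1 with robust estimation. The genes called were 4 as reported, 41 with no filter and 932 by DESeq2, so the tools differ for all genes and not for Fos and Junb alone. DESeq2 also called 1 member in untreated glands and 2 after ACTH.

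The ACTH average of Fos was 0.09 by limma-voom and 0.09 without the 2 wild-type libraries with kidney or liver transcripts, and -0.14 to 0.14 with a library left out. Without those 2 libraries Fosl2 was -0.13 for genotype in untreated glands and -0.11 for ACTH in wild type, and the interaction was 0.34 for Fosl2, 0.15 for Jun and -0.05 for Jund; the Fosl2 interaction was 0.04 without TMM factors. With 1 library left out in turn, Fosl2 ranged from -0.14 to 0.27 for the genotype average, -0.44 to 0.64 for genotype untreated, -0.24 to 0.29 for genotype after ACTH, -0.30 to 0.77 for ACTH in the knockout and -0.60 to 0.47 for the interaction. Likewise Fosb ranged from -1.11 to 1.76 and Jun from -0.33 to 0.61 for genotype after ACTH, Junb from -0.00073 to 0.98 for the ACTH average and -0.76 to 0.58 for ACTH in wild type, and the interaction from -1.08 to 0.18 for Jun and -0.24 to 0.36 for Jund. Such fits leave 1 group with a lone library, which is assumed to vary like the others. The level of Jund per length was 71.42 with GENCODE lengths against 34.98 in the deposited RPKM.

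For Fos in the genotype average the log2 difference stayed between 1.58 and 1.87 and the adjusted p between 4.09e-07 and 0.164 over the 17 alternatives, and for Junb between 1.59 and 2.47 and between 4.1e-05 and 0.348. No paired analysis was possible because the labels give no numbers shared between the groups. Depth limited Fosb most, at 0 and 17 counts in untreated wild type.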

Other observations

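Jun followed the sex-chromosome transcripts more closely than the sex labels, a pattern seen after the values were known. The 3 libraries with Y-linked transcripts (Eif2s3y at 104 to 172 CPM) held Jun at 160 to 324 CPM, and the other 5, with Eif2s3y at 7.07 CPM or less, at 77.7 to 131 CPM. The values did not overlap, as for 1.76% of the 15361 genes in the same direction. The other 5 members overlapped between these 3 and 5 libraries. The 3 came from mice labelled male in every group but untreated wild type, so the split was unbalanced for treatment and genotype. Jun was also higher after ACTH in every pair of equal genotype and sex label. The part of ACTH or genotype in this split was not tested.

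Neuronal markers (Stmn2, Tubb3, Uchl1 and Snap25) summed to 548 CPM in the ACTH-treated knockout library labelled male, which held the highest Fos and Jun levels of the series, and to 37.9 to 106 CPM in the other 7; their part in those levels was not tested.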
